A study of Mus musculus with 8 samples.

Results

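Sodium, calcium and potassium channel genes were examined in mouse neural stem and progenitor cells with and without depletion of the arginine methyltransferase Prmt5. Members were all genes whose symbol on the array begins with one of the naming stems of voltage-gated sodium channels (Scn), voltage-gated calcium channels (Cacna1, Cacna2d, Cacnb, Cacng) or potassium channels (Kcn) and ends as that nomenclature prescribes. The pattern uses symbols alone and no measured value. It found 106 genes, with 161 probes, among the 16562 named genes on the array: 8 sodium, 20 calcium and 78 potassium channel genes.

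The cells came from E14.5 embryos, whose background was mixed C57BL/6 X 129S1/SvlmJ. The 4 control samples (Prmt5F/F) carry both floxed alleles of Prmt5 and no Cre, and the 4 Prmt5-depleted samples (Prmt5F/FNes) carry the same alleles with Nestin-Cre, a recombinase driven by regulatory sequence of a gene of neural stem cells. Since Cre is in the depleted samples only, an effect of Cre itself cannot be told apart from loss of Prmt5. Whether the samples of a genotype are separate embryos or cultures is not in the labels, and the p-values describe only how far these samples spread, which may be technical. Total RNA of each sample was hybridised to an Illumina MouseRef-8 V2 array, where each probe reports the brightness of beads that bind part of one transcript.

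Voltage-gated sodium channels open when the membrane is depolarised and carry the rising phase of the action potential, and voltage-gated calcium channels turn depolarisation into calcium entry. Potassium channels return the membrane to rest, set the resting potential and shape firing. Each channel has pore-forming subunits, and many have auxiliary subunits that alter gating or carry the pore to the membrane. Neural progenitors do not fire as neurons do, but they use potassium channels to hold a resting potential, and channels are gained step by step as neurons mature.

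The depleted genotype had 20 of the 46 testable channel genes at higher signal (43.5%) and 8 at lower signal (17.4%), where 47.8% of all 9001 testable genes were called, 23.7% higher and 24.1% lower. The highest rises were in the sodium channel beta subunit Scn3b (5.65-fold) and the tandem-pore potassium channel Kcnk1 (3.34-fold), and the deepest fall was in the tandem-pore channel Kcnk5 (4.14-fold). The sizes depend on the background step: with no background correction, which gives the deposited normalized values, those folds were 3.11, 2.48 and 2.78. Of the sodium channel genes 3 rose and 0 fell, of the calcium channel genes 4 rose and 1 fell, and of the potassium channel genes 13 rose and 7 fell. Signals are on a log2 scale after background correction and quantile normalization, and a gene was testable, or kept, when a probe was detected on at least 4 of the 8 arrays. A gene was called when limma's test passed an adjusted p of 0.05, with adjustment over all 13196 kept probes of the array.

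Many genes of the array differed between the genotypes, and the counts are read against that. Over all kept probes 46.7% were called, 22.1% higher and 24.7% lower. Of the 54 kept channel probes, 23 (42.6%) were higher and 8 (14.8%) were lower. Where genes are counted, the brightest kept probe stands for each. The median log2 change was 0.33 over kept channel probes and -0.06 over all kept probes.

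The filter bears on these counts, because channel probes were dim. Only 33.5% of channel probes were kept, against 51.4% of all probes, and 49.1% were detected on no array, against 40.1% of all probes. Of the kept channel probes, 16 were detected on all 4 depleted arrays but not on all 4 control arrays, and 4 the other way round. Keeping a probe only through the genotype in which it is bright favours a difference, although not every such probe was called (Kcnk12 was not). These counts give no support beyond that selection. Without any filter, 31 of the 161 channel probes (19.3%) were higher and 8 (4.97%) lower, where 24.2% of all probes were called, 11.9% higher and 12.3% lower. Among the 27 channel probes detected on all 8 arrays, 10 (37.0%) were higher and 6 (22.2%) lower, where 48.4% of all such probes were called, 21.2% higher and 27.2% lower. The median log2 difference over all 161 channel probes was 0.03, and over all probes of the array -0.02.

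With no background correction all 28 called genes had smaller changes in the same direction, and the estimated fold of 8 fell by over 1.5 times. Besides Scn3b, these were Kcnma1 (from 3.10 to 1.85), Kcnu1 (2.63 to 1.65), Kcnk13 (2.47 to 1.57), Kcnab1 (2.34 to 1.51), Kcna1 (2.31 to 1.52), Cacna2d3 (2.38 to 1.59) and Kcnab3 (2.23 to 1.48, a fall in signal). With a larger offset of 50, which also shrinks differences between dim signals, the folds of Scn3b (3.74), Kcnma1 (2.06), Kcnk13 (1.64) and Kcnh1 (1.58, from 2.41) were smaller by over 1.5 times.

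**Figure D1:**
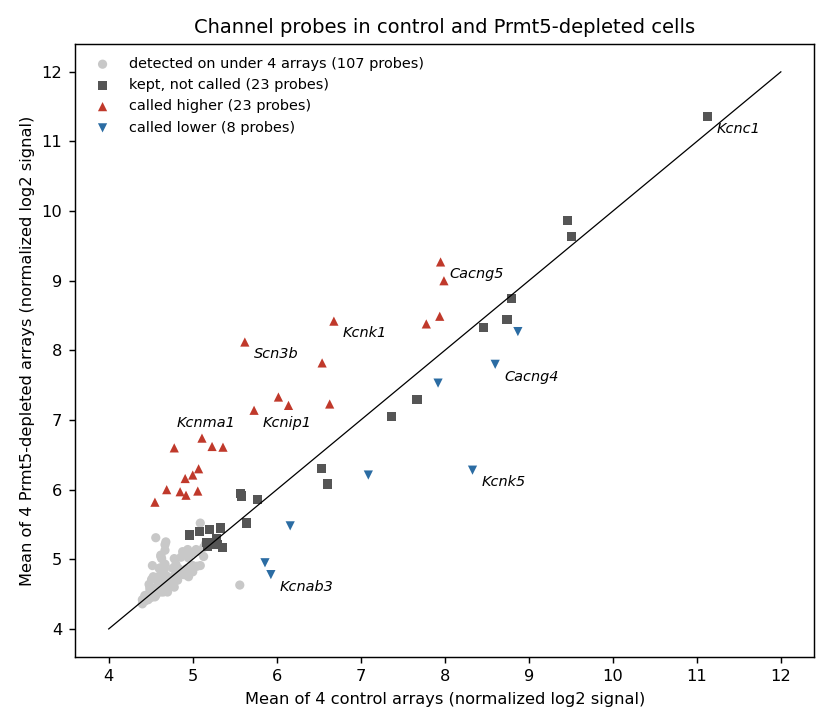
Each point is 1 of the 161 channel probes, with its mean log2 signal over the 4 control arrays on the horizontal axis and over the 4 Prmt5-depleted arrays on the vertical axis. Points above the diagonal are brighter in depleted cells; 23 probes were called higher and 8 lower, pale points are the 107 probes that were not kept, and Scn3b and Kcnk5 lie farthest from the diagonal.

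**Figure D2:**
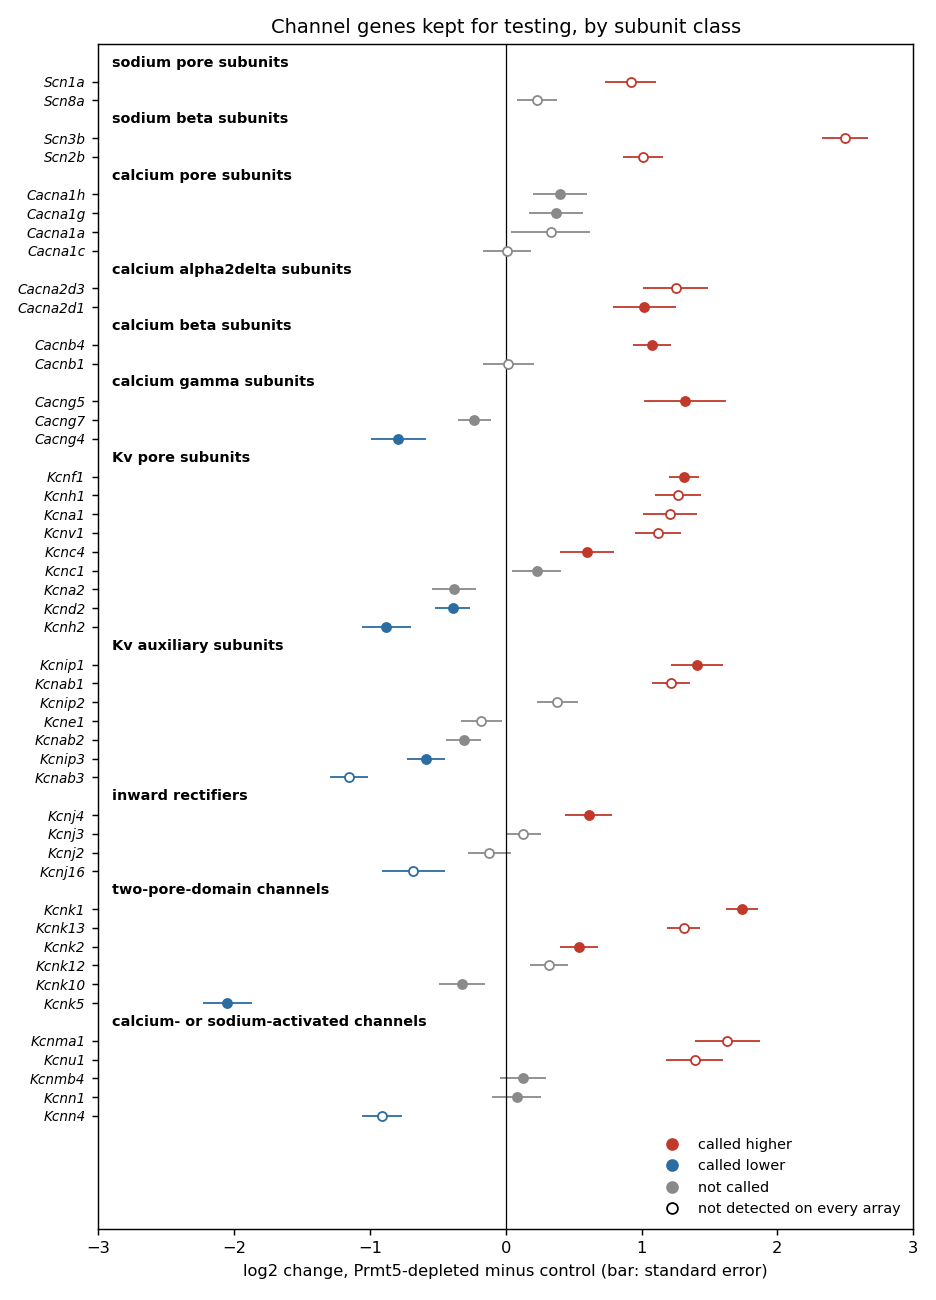
The log2 change of each of the 46 kept genes (Prmt5-depleted minus control) is drawn by subunit class, with a bar of 1 standard error on either side. Open circles mark genes whose probe was not detected on every array. Rises and falls stand side by side in the calcium gamma, Kv, inward rectifier, tandem-pore and calcium-activated classes. Of 4 calcium pore subunits 0 were called, where 47.8% of all testable genes were.

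The arrays separated by genotype. Prmt5 itself had log2 changes of -3.08, -2.70 and -2.60 at its 3 probes (8.45-, 6.49- and 6.06-fold), with adjusted p of 2.14e-07, 1.04e-06 and 9.81e-07. The number of probes detected was 12518 to 12922 on control arrays and 12925 to 13602 on depleted arrays. Of channel probes, 38 to 45 were detected on control arrays and 54 to 65 on depleted arrays. Detection was thus higher on depleted arrays over all probes as well. Pairs of arrays correlated at 0.979 to 0.993 when they shared a genotype and at 0.912 to 0.933 when they did not. On the second principal component (10.5% of the variance) control 4 and depleted 1 and 3 formed a cluster away from the other 5. The labels name no slide or date for that split, and gene calls that change without these 3 arrays, or with the split as a covariate, are given with those values. The split comes from the tested signals themselves, so such values are no independent test of a gene. With the covariate 23 potassium channel genes were called rather than 20, and without the 3 arrays 18.

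Markers of cell types moved with genotype too, where 47.8% of all testable genes were called, 23.7% higher and 24.1% lower. Of 17 kept neuronal markers 16 rose and 0 fell, and their summed signal ran from 9135 to 10009 on control arrays and from 27765 to 30704 on depleted arrays, although Snap25, Nefl and Gad2 were detected on no array. Sums are of linear signals, so the brightest genes weigh most, and they include the offset of 16 for each gene. Of 8 kept neural stem cell and radial glia markers 2 rose and 4 fell, and Pax6, Msi1 and Hmga2 were never detected. Their sums were 33711 to 38466 in control and 32813 to 35919 in depleted cells. Hes5 fell 8.79-fold, while the bright marker Vim rose 1.46-fold. Of 7 kept markers of the oligodendrocyte lineage 1 rose and 6 fell (35419 to 39517 against 23287 to 27643). Mag, Mog and Enpp6 were never detected. Olig1, the brightest of the 7, fell 1.39-fold. Pdgfra and Gpr17, detected on all 4 control arrays and 0 depleted arrays, were at least 30.6-fold and at least 15.2-fold lower, by the bound explained below. Of 5 kept astrocyte markers 3 rose and 0 fell (3139 to 5318 against 4264 to 5657), and Gfap and S100b were never detected. Clu rose 10.1-fold, while Aldoc, the brightest of the 5, was not called.

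Few markers from outside the neural lineages were kept. Of 9 markers of pericytes and mesenchymal cells 2 were kept, Dcn and Lum, and both rose (summed signal 102 to 116 against 484 to 834), while Pdgfrb, Col1a1, Abcc9 and Anpep were detected on no array. Of 7 muscle markers 3 were kept and 1, Acta2, rose (224 to 377 against 407 to 645; Myh11, Myod1 and Tagln never detected). The 1 kept microglial marker, Aif1, was not called (32 to 37 against 35 to 55; Ptprc, Itgam, C1qa and Tyrobp never detected), and 0 of 6 endothelial markers were kept. In bulk RNA, fewer cells of a type and less RNA per cell cannot be told apart, and the part of these markers in the channel results was not tested.

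Promoter sequence is shown for the channel genes with the greatest rise in each family and for the potassium channel gene with the greatest fall, among genes whose RefSeq promoter window lies at the outermost annotated start (assembly GRCm38.p6). Each run is the 250 bases before the transcription start on the strand of the gene, 5′ to 3′, with capitals marking the GC box, the core letters bound by Sp1-type factors (GGGCGG, or CCGCCC on the other strand).
Scn2b (sodium channel beta subunit, higher in depleted cells), chr9:45117626-45117875, + strand: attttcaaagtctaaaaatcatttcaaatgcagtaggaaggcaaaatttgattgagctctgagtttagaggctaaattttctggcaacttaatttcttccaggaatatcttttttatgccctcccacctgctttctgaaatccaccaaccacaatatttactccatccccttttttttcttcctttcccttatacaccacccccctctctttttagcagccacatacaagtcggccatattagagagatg
Cacng5 (calcium channel gamma subunit, higher), chr11:107915056-107915305, - strand: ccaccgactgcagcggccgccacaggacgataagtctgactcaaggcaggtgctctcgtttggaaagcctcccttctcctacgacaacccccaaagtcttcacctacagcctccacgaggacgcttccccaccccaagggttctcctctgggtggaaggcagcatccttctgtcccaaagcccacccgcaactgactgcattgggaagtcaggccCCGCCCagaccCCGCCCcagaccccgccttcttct
Kcnf1 (silent Kv subunit, higher), chr12:17176889-17177138, - strand: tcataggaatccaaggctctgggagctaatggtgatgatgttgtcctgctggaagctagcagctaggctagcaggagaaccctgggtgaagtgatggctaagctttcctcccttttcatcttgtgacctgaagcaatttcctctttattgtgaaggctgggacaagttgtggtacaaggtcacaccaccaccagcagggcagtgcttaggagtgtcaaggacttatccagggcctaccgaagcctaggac
Kcnk5 (tandem-pore potassium channel, lower), chr14:20181783-20182032, - strand: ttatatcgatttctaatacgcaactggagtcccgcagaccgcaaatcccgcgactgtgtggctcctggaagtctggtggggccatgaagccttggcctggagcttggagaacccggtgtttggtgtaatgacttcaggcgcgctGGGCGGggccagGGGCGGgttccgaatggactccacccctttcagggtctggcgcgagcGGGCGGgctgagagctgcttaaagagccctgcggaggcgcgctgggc
The Kcnk5 window holds 3 GC boxes and is 62.8% G and C, the Cacng5 window holds 2 boxes at 62.0%, and the Kcnf1 and Scn2b windows hold 0 at 51.2% and 38.4%. Over the same 250 bases of all 32851 listed promoters, 32.7% hold a GC box. Windows with a box numbered 11 of 26 (42.3%) for the 16 higher channel genes found in the table, 6 of 11 (54.5%) for the 6 lower ones, and 11 of 22 (50%) for 14 kept channel genes that were not called. The letters TATAAA, searched on both strands, occurred in 0, 1 and 0 of these windows and in 12.4% of all windows. Neither the cyclic AMP response element (TGACGTCA; 1.55% of all windows) nor the left part of the site of REST, a repressor of neuronal genes (TTCAGCACC; 0.301%), occurred in a window of a kept channel gene. At shares this low, their absence from so few windows says little. The called genes Scn3b, Kcnab3, Cacng4, Kcna1, Kcnv1 and Kcnu1 had no listed window.

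Among sodium channel genes, both kept beta subunits and 1 of 2 kept pore subunits rose, where 23.7% of all testable genes were called higher. Scn3b, a beta subunit of embryonic and adult brain, had log2 signals of 5.24, 6.05, 5.68 and 5.52 on control arrays 1 to 4 and of 8.03, 8.28, 7.98 and 8.20 on depleted arrays 1 to 4. The closest arrays of the genotypes lay 1.93 apart, and the rise was 2.50 (SE 0.17; 5.65-fold; adjusted p = 4.69e-07). Its second probe read 4.98, 4.63, 4.80 and 4.70 in control and 6.57, 6.77, 6.61 and 6.44 in depleted cells. That probe was detected on no control array and every depleted one, and such a difference is a lower bound, here at least 2.51-fold (adjusted p = 5.95e-07). The bound sets the bright genotype against a floor, the lowest signal of a detected probe on each array (5.08 to 5.30) or the probe's own signal where that is higher. Here and below, such a bound holds for the reported background step alone. The adjusted p beside it tests the difference in signals without the floor. Kcnab1, at least 2.04-fold higher by this bound, was 1.51-fold higher with no background correction and 1.67-fold with an offset of 50. Under these settings Scn2b (bound 1.57) was 1.39-fold and 1.48-fold higher, and Kcnv1 (bound 1.63) 1.47-fold and 1.54-fold. Kcnk13 (bound 1.66) was 1.57-fold and 1.64-fold higher, and Kcnab3 (bound 1.73) was 1.48-fold and 1.55-fold lower. All of these lie below their bounds. Kcnh1, with a bound of 1.46, stayed above it at 1.63 and 1.58.

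Scn2b, the beta subunit that is linked to the pore by a disulphide bond, gave 5.04, 4.76, 4.91 and 4.96 in control and 6.31, 5.93, 5.67 and 5.78 in depleted cells. It too was detected in depleted cells alone, at least 1.57-fold higher (adjusted p = 0.000175). Scn1a, a pore subunit prominent in inhibitory neurons, in which mutations cause epilepsy, had signals of 5.31, 5.04, 5.05 and 4.83 against 6.05, 6.43, 5.47 and 5.96. Depleted 3 was the lowest depleted array and lay 0.16 above the highest control array, and the rise was 0.92 (SE 0.19; 1.90-fold, 1.63-fold from the floor with 1 control array detected; adjusted p = 0.0017).

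Scn8a, the main pore subunit of mature nodes and axon initial segments, was 5.21, 5.33, 5.22 and 5.06 in control and 5.44, 5.42, 5.78 and 5.09 in depleted cells. The genotypes overlapped through depleted 4, and the change of 0.23 did not pass the test (adjusted p = 0.237). The other 4 sodium channel genes were not kept. Of these Scn11a, a pore subunit of sensory neurons, was detected on 3 depleted arrays and 0 control arrays, and its difference without the filter was 0.75 (adjusted p = 0.003). No sodium channel probe was detected on all 8 arrays, and every kept one was undetected on at least 1 control array.

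**Figure D3:**
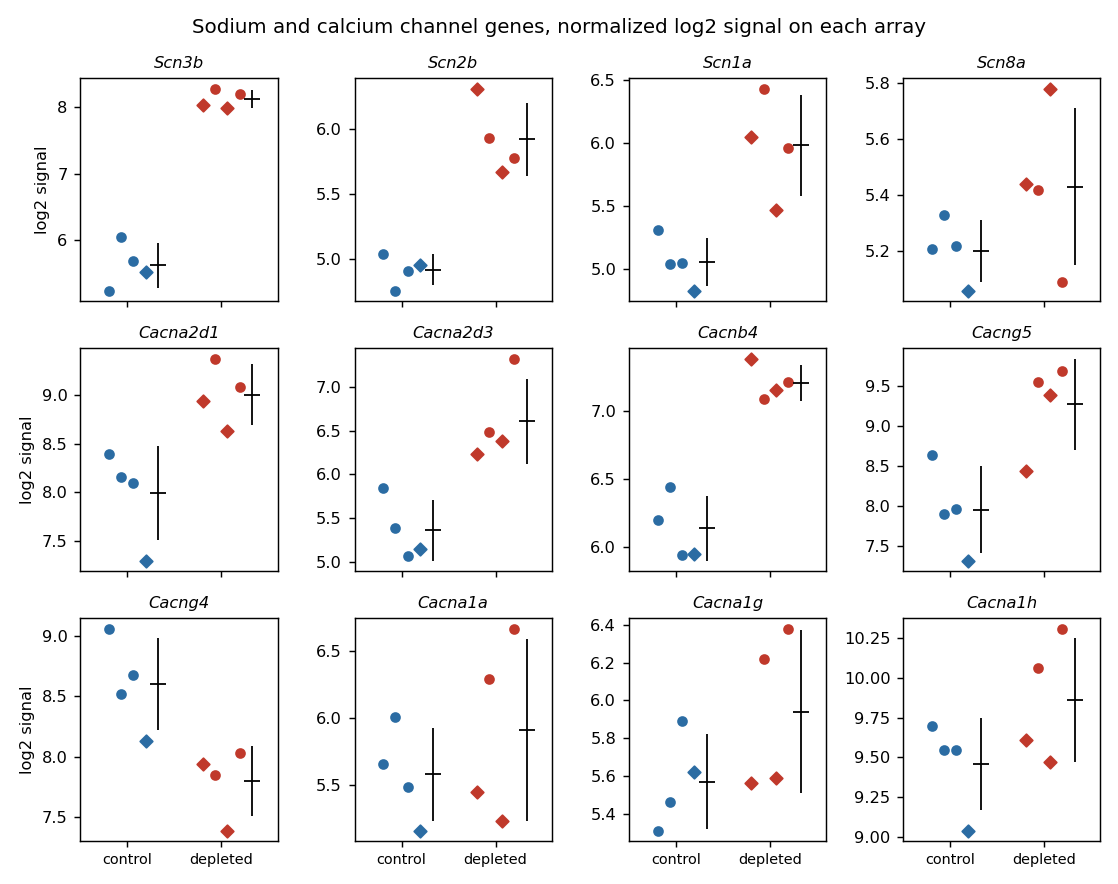
Normalized log2 signal of sodium and calcium channel genes on each array, one panel per gene with its own vertical scale; blue points are control and red points Prmt5-depleted arrays, diamonds are the 3 arrays that lay apart on the second component, and the bar is the mean with its SD. Scn3b, Scn2b, Scn1a, Cacna2d1, Cacna2d3 and Cacnb4, which rose, and Cacng4, which fell, have no overlap between genotypes.

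Of the 7 kept auxiliary subunits of calcium channels 4 rose and 1 fell, and 0 of the 4 kept pore subunits passed the test. Of all testable genes 47.8% were called, 23.7% higher and 24.1% lower. The difference between auxiliary and pore subunits was not tested. Both alpha2delta genes were higher. Cacna2d1, the alpha2delta subunit to which gabapentin binds and a receptor for synapse-forming thrombospondins, had signals of 8.39, 8.16, 8.10 and 7.30 in control and 8.94, 9.37, 8.63 and 9.08 in depleted cells. Control 4 was the lowest array and no arrays overlapped, with a rise of 1.02 (SE 0.23; 2.02-fold; adjusted p = 0.0031). Cacna2d3 was 5.84, 5.39, 5.06 and 5.14 in control and 6.24, 6.49, 6.38 and 7.33 in depleted cells. It rose by 1.25 (SE 0.24; 2.38-fold, 2.23-fold from the floor with 2 control arrays detected; adjusted p = 0.00112), and depleted 4 stood highest.

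Beta subunits sit in the cytoplasm and bring the pore to the membrane. Cacnb4, the beta subunit mutated in the lethargic mouse, read 6.20, 6.44, 5.94 and 5.95 in control and 7.39, 7.09, 7.16 and 7.22 in depleted cells, which do not overlap. Its rise was 1.08 (SE 0.14; 2.11-fold; adjusted p = 6.78e-05), whereas Cacnb1, best known from skeletal muscle, changed by 0.02 (adjusted p = 0.94). Cacnb2 was detected on 2 depleted arrays and 0 control arrays and was not kept, with a difference of 0.57 without the filter (adjusted p = 0.00536).

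The gamma genes moved in opposite directions. Most of them encode regulators that accompany AMPA-type glutamate receptors more than calcium channels. Cacng5 had signals of 8.63, 7.90, 7.96 and 7.31 in control and 8.43, 9.55, 9.39 and 9.69 in depleted cells, where depleted 1 lay below control 1. It rose by 1.32 (SE 0.30; 2.49-fold; adjusted p = 0.00352), and its second probe by 1.28 (2.43-fold; adjusted p = 0.00248). Cacng4, known for expression in the developing brain, fell.

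The signals of Cacng4 were 9.06, 8.52, 8.68 and 8.13 in control and 7.94, 7.85, 7.39 and 8.03 in depleted cells. The closest arrays, control 4 and depleted 4, lay 0.10 apart, and the log2 signal fell by 0.79 (SE 0.20; 1.73-fold; adjusted p = 0.0064). Cacng7 had a difference of -0.23 (adjusted p = 0.127).

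The pore subunits gave values that depended on the 3 arrays that lay apart. Cacna1h, a T-type pore opened by small depolarisations, was 9.70, 9.55, 9.55 and 9.04 in control and 9.61, 10.06, 9.47 and 10.31 in depleted cells. Cacna1g, also T-type, was 5.31, 5.46, 5.89 and 5.62 against 5.56, 6.22, 5.59 and 6.38. Cacna1a, the P/Q-type pore of presynaptic terminals, was 5.66, 6.01, 5.49 and 5.16 against 5.45, 6.29, 5.23 and 6.67. In all 3 genes depleted 2 and 4 were above every control array, and depleted 1 and 3 lay within the range of the controls.

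Their changes over all arrays were 0.40, 0.37 and 0.33 (adjusted p = 0.124, 0.158 and 0.383). With the split of arrays as a covariate they were 0.55, 0.47 and 0.55 (adjusted p = 0.00146, 0.0496 and 0.0176). With control 4 and depleted 1 and 3 left out they were 0.58, 0.75 and 0.75 (adjusted p = 0.0126, 0.0118 and 0.0127), so that 8 calcium channel genes rather than 5 were called under either. The split was drawn from these same signals, and leaving the arrays out removes depleted 1 and 3, which lay within the control range. These adjusted p-values are therefore no independent support for a rise. Cacna1c, an L-type pore, changed by 0.01 (adjusted p = 0.976), by -0.02 with the covariate and by 0.19 without the 3 arrays, and was called under neither.

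Among voltage-gated potassium (Kv) channels, 9 of 32 pore genes were kept, of which 5 rose and 2 fell. The shares over all testable genes were 23.7% higher and 24.1% lower. Of the risers, Kcnf1 and Kcnv1 encode silent subunits that form no channel alone but modify the Kv2 type. Kcnf1 was 6.08, 6.04, 5.89 and 6.06 in control and 7.32, 7.24, 7.46 and 7.30 in depleted cells. The 4 arrays spanned 0.19 in control and 0.22 in depleted cells, and the rise was 1.31 (SE 0.11; 2.48-fold; adjusted p = 2.67e-06). Kcnv1 was 4.99, 5.06, 4.56 and 4.79 against 6.14, 6.24, 5.98 and 5.52, detected in depleted cells alone and at least 1.63-fold higher (adjusted p = 0.000251).

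Kcna1, a low-threshold channel of axons, read 5.30, 5.09, 5.05 and 4.55 in control and 6.62, 5.96, 5.90 and 6.34 in depleted cells. It rose by 1.21 (SE 0.20; 2.31-fold, 1.90-fold from the floor with 1 control array detected; adjusted p = 0.000343). Kcnh1, the ether-a-go-go channel, was detected in depleted cells alone, with 4.43, 4.68, 4.53 and 4.55 against 6.23, 5.37, 5.91 and 5.76. The lowest depleted array, depleted 2, lay above every control array, and the rise was at least 1.46-fold (adjusted p = 7.41e-05).

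Kcnc4, a fast A-type channel of the Shaw family, was 7.81, 7.83, 7.87 and 7.61 in control and 8.19, 7.82, 8.69 and 8.82 in depleted cells. Depleted 2 lay within the control range, and the rise of 0.60 (SE 0.20; 1.52-fold; adjusted p = 0.0272) missed the threshold without control 1 (0.0509), control 4 (0.0612), depleted 3 (0.0784) or depleted 4 (0.0783), without the filter (0.0695), and without the 3 arrays that lay apart (0.162). Its relative Kcnc1, a channel of fast-spiking neurons, changed by 0.23 (adjusted p = 0.32). Kcna2, a partner of Kcna1 in axons, had a difference of -0.38 (adjusted p = 0.0679), and of -0.31 without the 3 arrays that lay apart (adjusted p = 0.213). It was called lower with the split of arrays as a covariate (-0.43; adjusted p = 0.0303), with array weights (-0.35; adjusted p = 0.0418) and without control 1 (-0.48; adjusted p = 0.0275).

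Both Kv pore genes that fell make currents of the heart as well as the brain. Kcnh2, the ether-a-go-go-related channel mutated in human long QT syndrome, was 7.37, 7.24, 7.09 and 6.68 in control and 5.91, 6.09, 6.27 and 6.58 in depleted cells. The genotypes did not overlap, although control 4 and depleted 4 were 0.10 apart, and the signal fell by 0.88 (SE 0.18; 1.84-fold; adjusted p = 0.00171). Its second kept probe was 6.73, 6.84, 6.49 and 6.33 against 5.57, 6.09, 6.06 and 6.60, a difference of -0.52 (adjusted p = 0.0507).

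Kcnd2, a somatodendritic A-type channel, read 7.68, 8.11, 8.0 and 7.90 in control and 7.67, 7.42, 7.43 and 7.60 in depleted cells. Its highest depleted array lay 0.01 below the lowest control array, and it fell by 0.39 (SE 0.13; 1.31-fold; adjusted p = 0.0256). That call was lost without control 2 (adjusted p = 0.08), control 3 (0.0677), depleted 2 (0.064) or depleted 3 (0.0685), under median scaling (0.0768) and without the 3 arrays that lay apart (0.074).

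Among auxiliary subunits of Kv channels, 7 of 11 genes were kept, of which 2 rose and 2 fell. Both directions are near the shares over all testable genes, 23.7% higher and 24.1% lower. Related genes moved in opposite directions in 2 groups. Of the KChIPs, calcium-binding partners of A-type channels, Kcnip1 had signals of 5.83, 5.38, 5.62 and 6.09 in control and 7.44, 6.68, 7.35 and 7.09 in depleted cells, a rise of 1.41 (SE 0.19; 2.66-fold; adjusted p = 9.66e-05). Kcnip3, also known as the transcriptional repressor DREAM and as calsenilin, was 8.94, 8.79, 8.79 and 8.94 against 8.41, 8.02, 8.57 and 8.08, and fell by 0.59 (SE 0.14; 1.51-fold; adjusted p = 0.00479). Neither overlapped between genotypes, and Kcnip2 had a difference of 0.38 (adjusted p = 0.0545). Without the 3 arrays that lay apart, the Kcnip2 difference was 0.38 (adjusted p = 0.0697). Kcnip2 was called higher with the split of arrays as a covariate (0.45; adjusted p = 0.0143), without control 2 (0.47; adjusted p = 0.0316), without depleted 3 (0.49; adjusted p = 0.0223) and in the fit on mean probes per gene (0.38; adjusted p = 0.0491).

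The Kvbeta subunits, cytoplasmic proteins related to aldo-keto reductases, differed likewise. Kcnab1 was 5.17, 5.09, 4.87 and 5.17 in control and 6.20, 6.06, 6.56 and 6.37 in depleted cells, detected in depleted cells alone and at least 2.04-fold higher (adjusted p = 2.27e-05). A second probe was at least 1.86-fold higher (adjusted p = 9.72e-05), whereas one more, detected on 2 control and 3 depleted arrays, changed by 0.07 (adjusted p = 0.756). That probe read 5.32, 5.02, 5.04 and 5.31 in control and 5.23, 4.81, 5.35 and 5.57 in depleted cells, which overlap.

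Kcnab3 was detected on every control array and no depleted one, at 6.01, 5.62, 6.22 and 5.87 against 4.63, 4.86, 4.92 and 4.70. It was at least 1.73-fold lower in depleted cells (adjusted p = 4.95e-05), and it was the 1 kept channel probe detected in no depleted sample. Kcnab2, the most widespread Kvbeta of brain, had a difference of -0.31 (adjusted p = 0.0812), and was called lower with the split of arrays as a covariate (-0.34; adjusted p = 0.0411). Kcne1, best known from heart and inner ear, had a difference of -0.18.

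**Figure D4:**
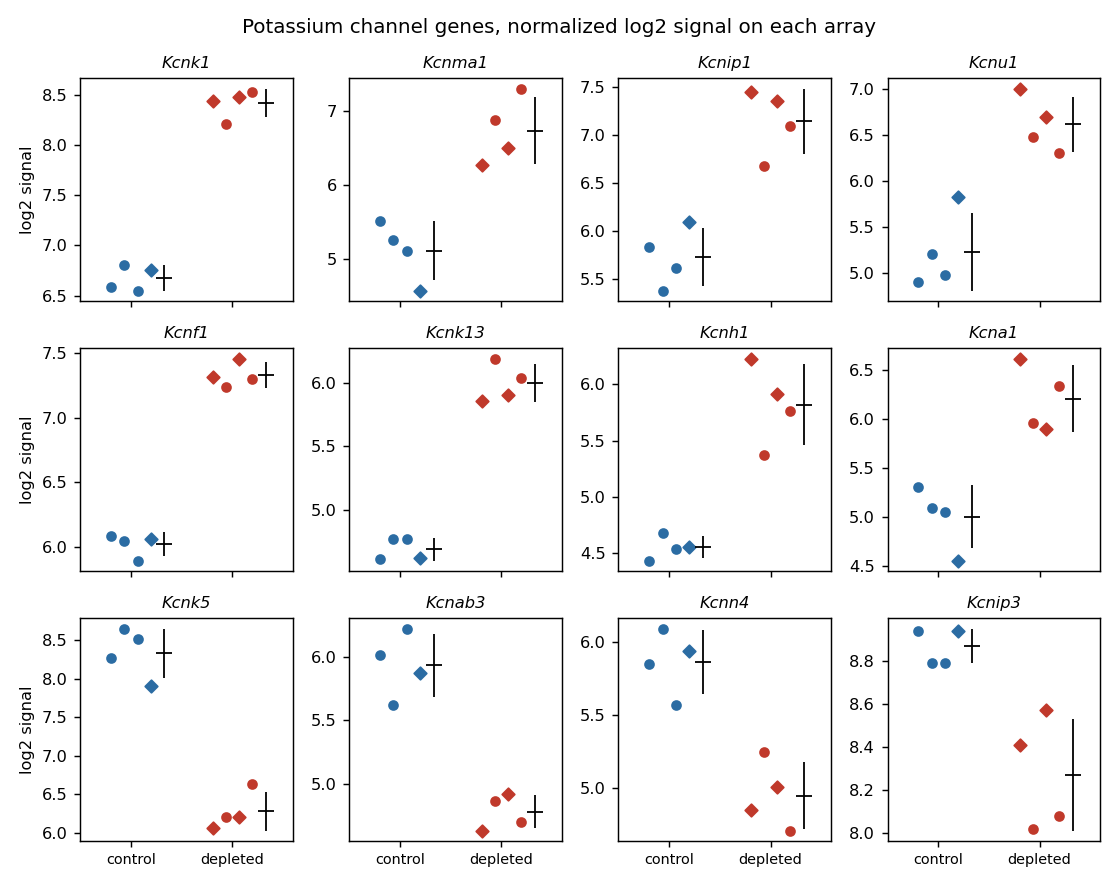
Normalized log2 signal of 12 potassium channel genes on each array, one panel per gene with its own vertical scale; blue points are control and red points Prmt5-depleted arrays, diamonds are the 3 arrays that lay apart on the second component, and the bar is the mean with its SD. The upper 2 rows hold genes called higher and the lower row genes called lower, and no panel shows overlap.

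Tandem-pore channels, which carry background potassium current at rest, held both the greatest rise and the greatest fall of the potassium channels. Of 13 genes 6 were kept, with 3 higher and 1 lower, where 23.7% of all testable genes were called higher and 24.1% lower. Kcnk1, a weakly conducting background channel of neurons and astrocytes, was 6.59, 6.81, 6.55 and 6.76 in control and 8.44, 8.21, 8.48 and 8.53 in depleted cells. It rose by 1.74 (SE 0.12; 3.34-fold; adjusted p = 7.1e-07), and the genotypes were 1.40 apart at their closest.

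Kcnk13, a halothane-inhibited channel known in microglia, was 4.61, 4.77, 4.77 and 4.62 in control and 5.86, 6.19, 5.90 and 6.04 in depleted cells. It was detected in depleted cells alone and was at least 1.66-fold higher (adjusted p = 4.56e-06). Of the microglial and macrophage markers, the kept Aif1 probe was also detected on 0 control and 4 depleted arrays (change 0.33; adjusted p = 0.0792), C1qb and Cx3cr1 were each detected on 1 depleted array, and Ptprc, Itgam, C1qa and Tyrobp on none. A further Aif1 probe was detected on 1 control and 2 depleted arrays, and another on none. The part of these markers in the Kcnk13 result was not tested. Kcnk12, a relative of Kcnk13, was 4.95, 5.17, 5.26 and 4.92 against 5.28, 5.29, 5.67 and 5.35, with no overlap and the same pattern of detection as Kcnk13, but the difference of 0.32 did not pass the test (adjusted p = 0.0697).

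Kcnk2, a channel opened by membrane stretch and fatty acids, read 7.88, 7.90, 8.06 and 7.93 in control and 8.20, 8.84, 8.50 and 8.41 in depleted cells, a rise of 0.54 (SE 0.14; 1.46-fold; adjusted p = 0.00812). All depleted arrays were above all control arrays. Kcnk10, its close relative, had a difference of -0.32 (adjusted p = 0.134), and was called lower without depleted 1 (-0.45; adjusted p = 0.0412).

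Kcnk5, an acid-sensitive channel known for potassium and volume regulation in epithelia, was 8.27, 8.64, 8.51 and 7.90 in control and 6.06, 6.21, 6.21 and 6.63 in depleted cells. The genotypes were 1.27 apart at their closest, and the signal fell by 2.05 (SE 0.18; 4.14-fold; adjusted p = 3.19e-06). A second probe, detected on 3 control and 0 depleted arrays and therefore not kept, had a difference of -0.93 without the filter (adjusted p = 0.00647).

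Calcium-activated potassium channels and their relatives had 5 of 10 genes kept, of which 2 rose and 1 fell. Of all testable genes 23.7% were called higher and 24.1% lower. Kcnma1, the pore of the large-conductance BK channel, was 5.51, 5.25, 5.11 and 4.57 in control and 6.27, 6.88, 6.51 and 7.31 in depleted cells. It rose by 1.63 (SE 0.24; 3.10-fold, 2.64-fold from the floor with 2 control arrays detected; adjusted p = 0.000168). Kcnmb4, the neuronal auxiliary subunit of that channel, had changes from -0.13 to 0.13 at its 3 kept probes, of which 0 were called.

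Kcnu1, a relative of Kcnma1 known as the potassium channel of sperm, was 4.90, 5.21, 4.98 and 5.83 in control and 7.01, 6.48, 6.70 and 6.31 in depleted cells. Control 4 was the highest control array and still lay below every depleted one, with a rise of 1.39 (SE 0.21; 2.63-fold, 2.34-fold from the floor with 2 control arrays detected; adjusted p = 0.000208). Kcnn4, the intermediate-conductance channel of blood cells and epithelia, fell from 5.85, 6.09, 5.57 and 5.94 to 4.85, 5.25, 5.01 and 4.71, by 0.91 (SE 0.15; 1.88-fold, 1.6-fold from the floor with 1 depleted array detected; adjusted p = 0.000471). Kcnn1, a small-conductance channel of neurons, changed by 0.08.

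Inward rectifiers, which pass potassium more readily inwards than outwards, had 4 of 12 genes kept. Kcnj4, a strong rectifier of forebrain neurons, was 6.17, 6.56, 6.96 and 6.81 in control and 7.13, 7.26, 7.09 and 7.45 in depleted cells. Every depleted array was above every control array, and the rise was 0.61 (SE 0.17; 1.52-fold; adjusted p = 0.0114). Kcnj2 and Kcnj3, a strong rectifier and a G protein-gated subunit, had differences of -0.12 and 0.13 and were not called.

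Kcnj16, which forms pH-sensitive channels with a glial partner, was 6.26, 6.18, 5.94 and 6.25 in control and 5.04, 5.65, 6.20 and 5.01 in depleted cells. Depleted 3 lay within the control range, and the fall was 0.68 (SE 0.23; 1.6-fold, 1.53-fold from the floor with 2 depleted arrays detected; adjusted p = 0.0313). It was the weakest of the 28 gene calls by adjusted p, and was lost without control 1 (0.0725), control 2 (0.0631), control 4 (0.06), depleted 1 (0.0879) or depleted 4 (0.0912), without the filter (0.0878) and with array weights (0.0889).

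Of the 46 kept genes, 19 had all depleted arrays above all control arrays and 8 had all below. Over all 9001 testable genes these shares were 22.6% and 22.2%, 44.8% together. The 60 genes without a kept probe include pore genes of each family. Among the 107 channel probes that were not kept, the unfiltered log2 difference ran from -0.93 to 0.75, and 9 were called higher and 1 lower in the unfiltered fit. The higher ones comprised Scn11a, Cacnb2, Cacng3, Kcnmb2, Kcnj12, Kcnk3, Kcnk6 and second probes of Kcnip1 and Kcnk2, and the lower one was the second Kcnk5 probe.

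Probes of one gene did not always move together. Of 36 channel genes with more than 1 probe, 6 had at least 2 kept probes. Scn3b and Cacng5 were called higher at both, and Kcnmb4 and Kcnc1 at none. Kcnab1 and Kcnh2 were called at some probes and not at others. Which transcripts each probe binds was not analysed here, and whether splice forms differ was not tested.

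**Figure D5:**
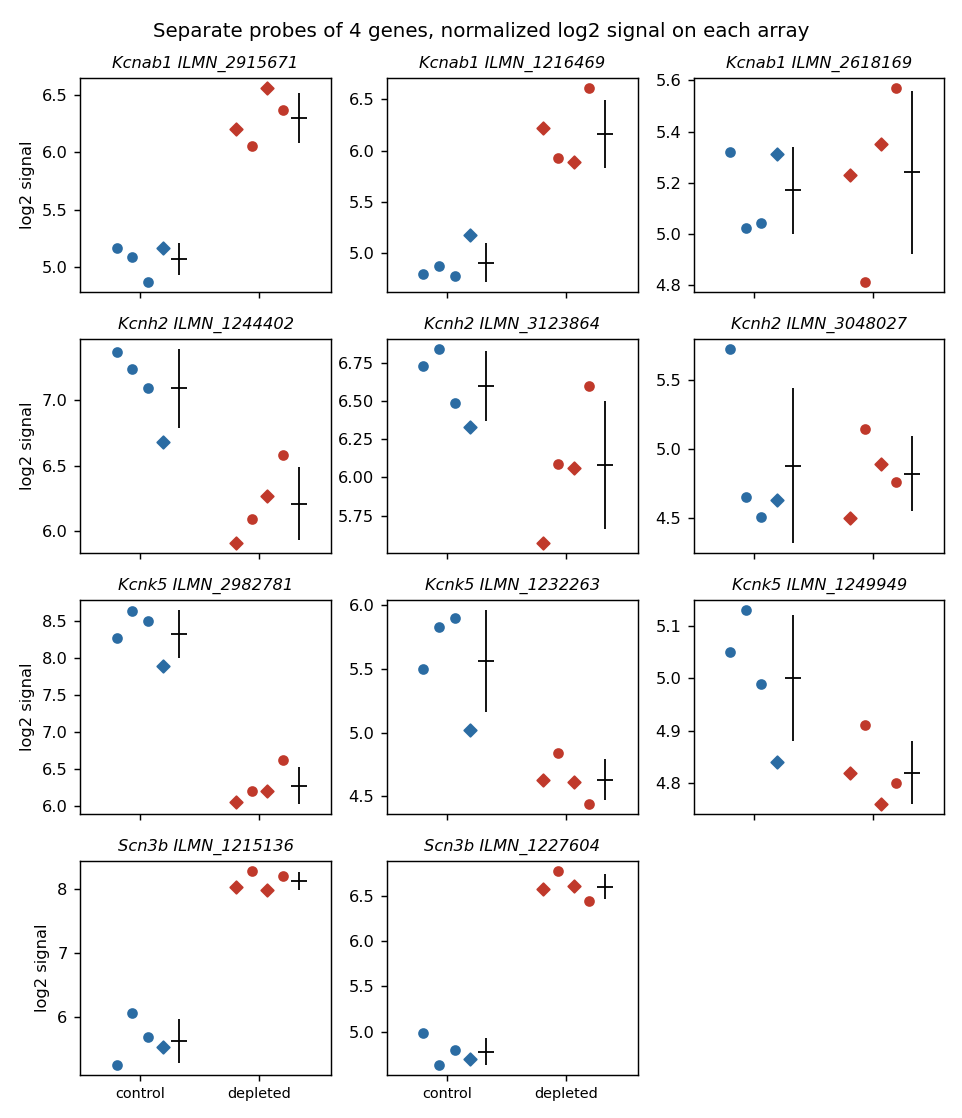
Log2 signal on each array at every probe of Kcnab1, Kcnh2, Kcnk5 and Scn3b, kept or not, one panel per probe with its own vertical scale; points are blue for control and red for Prmt5-depleted arrays, diamonds are the 3 arrays that lay apart on the second component, and the bar is the mean with its SD. Both Scn3b probes separate the genotypes, the Kcnab1 probe with a change of 0.07 does not, the second Kcnh2 probe has a difference of -0.52, and the second Kcnk5 probe one of -0.93.

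Proteins that anchor or modulate channels moved in one direction among those called. Of 22 such genes on the array 18 were kept, 15 rose and 0 fell, with a median log2 change of 0.78 beside -0.04 for all testable genes. Over all testable genes 23.7% were called higher and 24.1% lower. Rgs4, a brake on G protein signalling, rose 12.3-fold (adjusted p = 1.06e-07). Dlg2, a scaffold at which Kv channels and glutamate receptors cluster, rose 4.29-fold (adjusted p = 1.86e-07), and Cntnap2, which clusters Kv channels beside nodes of Ranvier, rose 11.5-fold (adjusted p = 3.93e-06).

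Channels outside the 3 families had 16 of 30 genes kept, with 6 higher, 0 lower and a median of 0.25. Over all testable genes 47.8% were called, 23.7% higher and 24.1% lower, so the total called among these channels was not above that share. Hcn2, a pacemaker channel opened by hyperpolarisation, rose 2.13-fold (adjusted p = 0.000106), and the calcium-activated chloride channel Ano1 and the acid-sensing channel Asic2 were at least 1.43-fold and at least 1.24-fold higher. Of the pumps and exchangers that maintain ion gradients, 13 of 21 were kept, 6 rose and 1 fell, with a median of 0.07. The sodium pump subunit Atp1b1 rose 6.39-fold (adjusted p = 1.59e-07), the calcium pump Atp2b2 at least 3.77-fold (adjusted p = 6.2e-07) and the sodium-calcium exchanger Slc8a1 2.60-fold (adjusted p = 4.91e-06), while Atp1b3 fell 1.29-fold (adjusted p = 0.0311).

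REST and its corepressors hold neuronal genes, several channels among them, silent outside neurons. Of 11 such genes on the array 10 were kept, 0 rose and 4 fell, with a median of -0.35. The total called was not above the share over all testable genes, 47.8%, with 23.7% higher and 24.1% lower. Rcor2, a corepressor of neural progenitors, fell 3.51-fold (adjusted p = 2.64e-06), and the phosphatases Ctdsp1 and Ctdsp2 fell 2.28-fold and 1.52-fold (adjusted p = 0.000128 and 0.0028). The probe for Rest itself was detected on no array, so its level is not known here.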

How the data were processed

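Total RNA of 8 samples, 4 of each genotype, was labelled with biotin and hybridised to 1-colour Illumina MouseRef-8 V2 arrays, per the labels' protocols. The authors deposited a table of non-normalized intensity for 25662 probes and a detection p-value for each, per the file headers. Array columns were assigned to samples by their names, with 0 unassigned. The sources used here do not give the scanner software or earlier background correction. The authors' deposited series matrix gives intensity again, equal to quantile-normalized signals of the first table within 3.64e-12. The median of its columns was 95.8 on control 1 and 4 and depleted 1, and 95.7 on the other 5 arrays, on a linear scale without centring; it served as an alternative.

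Log2 signals were made by neqc, which combines normexp background correction from the detection p-values, an offset (16 here) and quantile normalization between arrays (limma 3.58.1, R 4.3.3, statmod 1.5.0). The offset pulls folds of dim probes towards 1, and quantile normalization would hide a change shared by most genes. Probes detected at p under 0.05 on at least 4 of 8 arrays were kept (13196). Genotypes were compared per probe by lmFit and eBayes in a two-sided test with no covariate, and Benjamini-Hochberg adjustment ran over all kept probes at 0.05; all adjusted p-values are from limma. On simulated data with 200 probes changed by a log2 value of 1 among 13196, 88% were called. In the real data 46.7% of kept probes were called, with changes of many sizes. The 88% is therefore no estimate of how many real changes were found. Mean signals per array were 449 to 598, and the number of arrays limits the precision.

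Names come from the platform annotation, checked through Entrez IDs in a RefSeq table. Promoter windows are from RefSeq (GRCm38.p6), and no protein sequence was used. Members and lists were chosen with earlier results of these data known. Values on every array were given to called genes by size of change within each family or subfamily, to genes against their family's main direction, to genes with discordant probes and to members detected in 1 genotype alone. Calcium pore subunits, Scn8a, Kcnc4 and Cacng5 were added after their values were seen. Alternatives changed the offset, the normalization, the deposited matrix, the filter, array weights, the replicate block, the split of arrays on the second component, and each array in turn.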

Additional observations from a re-analysis of the deposited data

Results flagged for a closer look

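The signals of the 46 kept genes on the 4 arrays of each genotype, 92 groups in all, were checked for a sample far from its group, and 2 stood out, where chance marks about 1 in 20. Kcnk12 had a log2 signal of 5.67 on depleted array 3 while the other 3 depleted arrays lay between 5.28 and 5.35. Kcnip2 had 5.03 on depleted array 3 while the others lay between 5.41 and 5.48. The gap to the nearest array was 0.841 and 0.845 of the whole range, above Dixon's 95% limit. Neither gene was called, and both values come from 1 of the 3 arrays that lay apart on the second component.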

How the results depend on the processing

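Under the alternatives run, the 46 kept channel genes gave 897 values besides the reported ones: 842 kept their direction and their side of the threshold, 21 lost a call (3 genes), 15 gained one (7 genes) and 19 turned sign (7 genes, none called in the reported fit). The deposited matrix and the fit with no background correction use the same signals, and both sets of values are in these counts. Sizes were smaller for all 28 called genes without background correction, by 1.06 to 1.82 times in fold, and with an offset of 50, by 1.04 to 1.52 times. Restricting to probes detected on all 8 arrays gave 10 channel probes higher, 0 sodium genes and 10 potassium genes called (23, 3 and 20 reported), since fewer probes remain. Calcium genes called were 8 with the array split as a covariate and 8 without control 4 and depleted 1 and 3 (5 reported); potassium genes were 23 and 18. Leaving out each array in turn gave 5451 to 6140 probes called on the whole array, 22 to 24 channel probes higher, 6 to 8 lower, and 3 to 3 sodium, 5 to 5 calcium and 18 to 20 potassium genes. Of the genes that turned sign, Cacna1c was -0.02 under median scaling, -0.02 with the covariate, -0.01 with array weights, and between -0.14 and 0.12 with each array left out in turn, below 0 without control 1 (-0.14), control 2 (-0.02), depleted 3 (-0.06) or depleted 4 (-0.05); Cacna1a was -0.01 and Cacnb1 0.00 with array weights; Cacnb1 ran from -0.12 to 0.17, Kcnj2 from -0.22 to 0.04 and Kcnn1 from -0.02 to 0.24 with each array left out; Kcnn1 was -0.01 with the covariate, Kcnmb4 -0.01 as the mean of its probes, and Scn8a 0.00 without the 3 arrays. Same-numbered arrays had deviations correlated at -0.14, 0.24, -0.16 and -0.37. Control 4 correlated at 0.39 and 0.37 with depleted 1 and 3, the arrays that lay apart. These values therefore cannot decide whether the numbers pair the samples. The fit with a replicate block called 23 channel probes higher, 6 lower, 3 sodium, 5 calcium and 18 potassium genes and 5516 probes in all. It lost Kcnd2 (adjusted p = 0.0698) and Kcnj16 (adjusted p = 0.0516). Of all channel probes 79 were detected on no array, and for these signal over background limits any statement.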
